A study of Mus musculus with 2 samples.

Results

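The cytosolic ribosomal protein genes were 80 of the 32285 genes counted in single splenic cells after allogeneic hematopoietic cell transplantation. They were chosen by symbol (Rpl or Rps followed by a digit, without the Rps6k kinases and the pseudogenes marked -ps) and by a total of at least 1000 unique molecular identifiers (UMIs, each standing for one captured RNA molecule) over both libraries. Of 82 genes with such a symbol, 33 Rps genes of the small subunit and 47 Rpl genes of the large subunit passed. The total that chose the members is a measured value, so no level is given here as a finding about how they were picked. Just inside the limit were Rpl39l with 1659 UMIs, Rps19bp1 with 7540 and Rpl7l1 with 12989, and outside it were Rpl3l with 9 and Rpl10l with 1. The symbol rule took in Rps19bp1, whose product binds a ribosomal protein, and Rpl7l1, whose product acts in ribosome assembly, and it missed subunit proteins such as Rplp0, Rplp1, Rplp2, Rpsa, Fau and Rack1.

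In this model of acute graft-versus-host disease, irradiated BALB/c mice received C57BL/6 bone marrow depleted of T cells together with C57BL/6 splenic T cells. The labels call these T cells naive. The study's single-cell methods refer to a model given naive T cells, while its captions for that experiment do not call them naive. Cells positive for CD45, donor H2Kb and TCRβ and negative for recipient H2Kd were sorted from spleens, pooled and run on the 10x Genomics platform, with 1 library for day +7 and 1 for day +14 after transplantation. Day was taken from the sample titles, since the growth protocol names a day +7 sort for both libraries. Both library names carry "PBS", a term the labels do not explain, and no untreated or T cell-free control library was analysed here. With 1 library per day, day and library cannot be told apart, no test of day was possible and no p-value is given; every interval below is a 95% interval for counting error only.

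Ribosomal proteins coat and stabilize the ribosomal RNA of the small and large subunits, and each is needed in about equal amounts. Their mRNAs are among the most abundant in any growing cell, and most begin with a C followed by an unbroken run of pyrimidines (a terminal oligopyrimidine, or TOP, start), through which mTORC1 signaling controls how well they are translated. Naive T cells that meet antigen build new ribosomes before they divide, whereas maturing neutrophils shut ribosome production down. An mRNA count says nothing about the amount of protein made.

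Barcodes with 500 to 7500 genes and at most 15% mitochondrial UMIs were kept, 7179 of 7355 at day +7 and 7794 of 8043 at day +14. The kept barcodes held 86745047 and 83808218 UMIs, with medians of 9210 and 8144 per barcode, and 17 kept barcode sequences occurred in both libraries. Barcodes were gated by the share of their own UMIs from fixed marker genes, without clustering. The CD8 gate had 5729 and 5784 barcodes and the CD4 gate 477 and 704. Within each, barcodes with at least 0.1% of UMIs from 16 cell cycle genes such as Mki67 and Top2a were called cycling and those with at most 0.02% non-cycling. The limits cut a range: 1440 CD8 barcodes at day +7 and 1299 at day +14 lay between 0.05% and 0.2%. All 6 T cell genes (Cd3d, Cd3e, Cd3g, Trac, Trbc1, Trbc2) were detected in each of the 4 T cell gates, at a summed 5252 to 9591 CPM (a gene's UMIs scaled to a total common to all gates), while the 12 neutrophil genes summed to 14.4 to 79.4 CPM there. Genes of B cells (Cd79a, Cd79b, Ms4a1) summed to 2.96 to 32.7 CPM in those gates at day +7 and to 0.768 to 6.11 CPM at day +14, and macrophage genes to 5.55 to 76.1 and 7.30 to 17.5 CPM. A sort on TCRβ should remove neutrophils and erythroid cells, yet 37 and 61 barcodes fell in a neutrophil gate (at least 1% of UMIs from genes such as S100a8, Ngp and Camp) and 78 and 22 in an erythroid gate (at least 0.5% from genes such as Car1, Klf1 and the globins). T cell genes summed to 89.7 and 157 CPM in the neutrophil gate and to 44.4 and 135 CPM in the erythroid gate. Both of these gates took only barcodes with at most 0.1% of UMIs from T cell genes. The T cell gates took only barcodes with under 0.5% from neutrophil genes and under 0.2% from erythroid genes. The sums of these lists were thus bounded by the gates and are no separate evidence of purity. RNA associated with ribosomal RNA loci (Gm42418, Gm26917 and AY036118) took 1.94% of all UMIs at day +7 and 0.673% at day +14; its part in the day differences below was not tested beyond leaving it out of the totals.

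The starts of the genes that the comparisons below turn on are shown first, because the TOP run is the sequence feature by which this gene family is known. RefSeq start sites on GRCm38.p6 were found for 61 of the 80 members, and each window runs 5′ to 3′ on the gene's strand from 10 bases before the annotated start to the 15th base from it, with the longest run of a C followed by at least 4 bases that are C or T in capitals. Members that were higher at day +14 or lower in cycling cells are given first.

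Rps15a (chr7:118116133-118116157, minus strand): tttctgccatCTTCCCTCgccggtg
Rpl39 (chrX:37085208-37085232, minus strand): gctccgcctctagcgaCTTCTTCTa
Rps27 (chr3:90213634-90213658, minus strand): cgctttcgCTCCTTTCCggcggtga
Rps27rt (chr9:114982725-114982749, minus strand): ttatcccttgCTTTCCggcggtgac
Rps24 (chr14:24490668-24490692, plus strand): gctggggtCCTTCCTTgcgcgttga

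Members that were lower at day +14 or higher in cycling cells follow, with the paralog Rpl22l1.

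Rpl35 (chr2:39005117-39005141, minus strand): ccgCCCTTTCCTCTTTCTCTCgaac
Rpl31 (chr1:39367841-39367865, plus strand): tcctcgCCTCCCCgtgacccggaag
Rps2 (chr17:24720053-24720077, plus strand): gtcgagatctcgcgCTTCTTggagc
Rps27l (chr9:66946076-66946100, plus strand): CCTCCCCgccgcctctatcccggaa
Rpl22l1 (chr3:28805498-28805522, plus strand): gcgcaagcccgttCTCTTCCCacgg

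The last set shows the members nearest the limit, of which Rpl39l had a run and those named after ribosome-associated factors had none in the window.

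Rpl39l (chr16:10170218-10170242, plus strand): aggCCTTTCCggatttccggtggtc
Rps19bp1 (chr15:80264292-80264316, minus strand): cggaagtagctcgccgcgtgtgggc
Rpl7l1 (chr17:46782642-46782666, minus strand): gctgcgcaagcgcagtagctgaagc

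A run starting within 10 bases of the annotated start was found in 37 of the 61 members (60.7%), against 33.3% of the 27025 genes in the table. In 13 members (21.3%) the annotated start base was itself a C followed by at least 4 bases that are C or T, against 3.01% of all genes. That C could lie inside a run that began earlier, as in Rps27 and Rpl35. Annotated starts can lie some bases from the base at which transcription begins, so a window without a run says only that these letters are not there. All windows printed in the sets of members higher or lower between days, or between cycling and non-cycling cells, held a run. Rps19bp1 and Rpl7l1, printed in the last set, also differed between cycling and non-cycling cells and had none. Among members named below for a day or cycling difference without a printed window, Rps26, Rpl13a and Rpl34 had a run. Rps28, Rpl10 and Rpl36al had none, and no start site was found for Rpl29. Another annotated start of Rps24 and of Rps27l, not printed, also had none. The printed windows therefore cannot show whether a run goes with either direction.

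Together the members gave 26.4% of all UMIs at day +7 (22881304 UMIs) and 26.2% at day +14 (21920678 UMIs). Rpl41, the shortest protein of the ribosome, had the most UMIs (1213218), followed by Rpl13 (1142806) and Rpl32 (1097181), and Rps15a (981574) was also among the 5 highest. A UMI counts a captured molecule whatever its length, but capture can differ between genes, so these are orders of counts. Most members were seen in nearly every cell: 75 of 80 had a UMI in more than 90% of kept barcodes, and the lowest were Rpl39l in 3.43%, Rps19bp1 in 32.6%, Rpl7l1 in 46.2%, Rps27rt in 71.8% and Rps27l in 89.6%. Members were chosen by their UMI total in these same barcodes, and the share over all genes is not given here. The members lay on 19 chromosomes, with 13 on chromosome 7. Reads of Rps27 and its retrogene Rps27rt, a near copy, could be split between them and their separate values are uncertain.

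The members' share of UMIs differed more between gates than between days. In CD8 non-cycling barcodes they took 28.5% of UMIs at day +7 (interval 28.48 to 28.55, 1147 barcodes) and 28.8% at day +14 (28.78 to 28.85, 1088 barcodes). CD8 cycling barcodes gave 25.5% (3218 barcodes) and 25.8% (3344 barcodes). In the CD4 gate the non-cycling share was 28.9% at day +7 (171 barcodes) and 26.9% at day +14 (240 barcodes), and the cycling share was 25.8% and 26.1% (191 and 208 barcodes). The CD8 non-cycling, CD8 cycling and CD4 cycling gates were thus nearly level over time, and the CD4 non-cycling gate was the T cell gate with a lower share at day +14. The erythroid gate had the highest shares, 33.4% and 30.04%, and the neutrophil gate the lowest, 12.4% and 9.86%. Shares of single barcodes overlapped widely between days in every gate: in CD8 non-cycling barcodes they ran from 7.62% through a median of 27.9% to 52.9% at day +7 and from 6.66% through 28.2% to 43.8% at day +14.

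**Figure D1:**
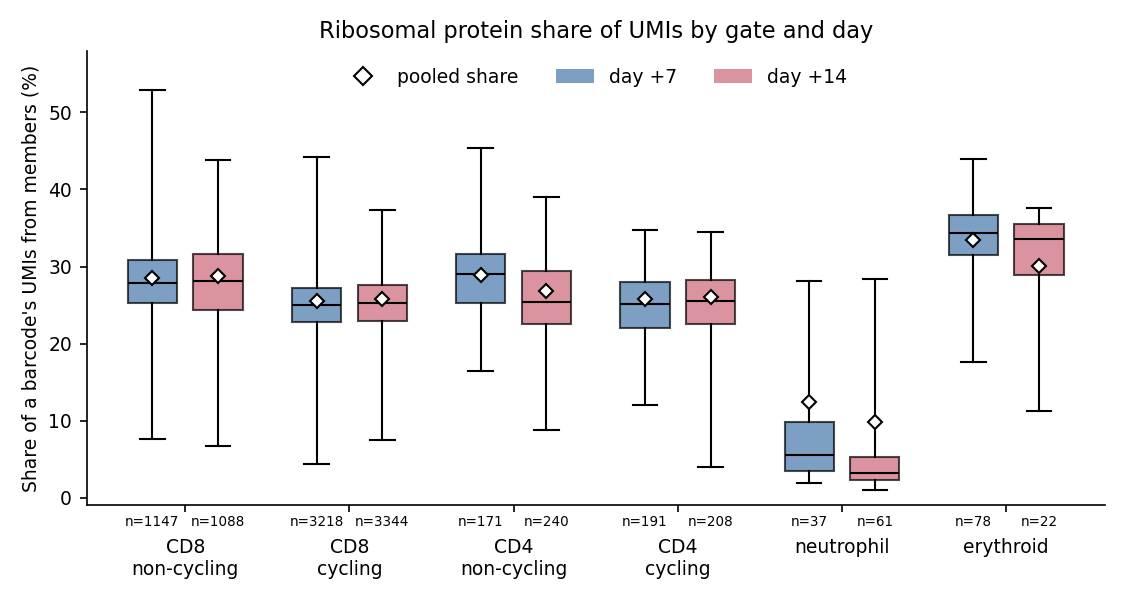
Share of each barcode's UMIs that came from the 80 ribosomal protein genes (y axis, percent) in 6 gates at day +7 (blue) and day +14 (red), with n the number of barcodes; boxes give quartiles and median, whiskers the lowest and highest barcode, diamonds the pooled share. The neutrophil gate lies lowest (pooled 12.4% and 9.86%) and the erythroid gate highest (33.4% and 30.04%), while both days overlap in every gate.

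On the log2 scale, day +14 over day +7, the share was 0.02 in the CD8 non-cycling gate (interval 0.01 to 0.02), 0.01 in the CD8 cycling gate and 0.01 in the CD4 cycling gate. It was −0.11 in the CD4 non-cycling gate, −0.33 in the neutrophil gate and −0.15 in the erythroid gate. The sign of the first 3 values rests on the scaling. The median of other genes was higher at day +14 in the CD8 gates, and when the libraries were scaled by the median ratio of other genes with at least 100 UMIs on both days, the same values became −0.16, −0.18 and −0.06, and those of the other gates −0.11, −0.38 and −0.24. That median was 0.17 in the CD8 non-cycling gate (5341 genes) and 0.20 in the CD8 cycling gate (9293 genes), and it rested on 115 genes in the erythroid gate. Scaling instead by the other genes that passed the limits for comparison (an average of 10 CPM or more and 100 UMIs or more over both days), a set chosen after seeing the data, gave −0.18, −0.16 and −0.09, and −0.19, −0.38 and −0.11, so the size depends on the genes that set the scale while all 6 values were negative under both. Among other genes compared, the day ratio rose with transcript length in the CD8 non-cycling and cycling gates (Spearman 0.37 and 0.39). The CD4 non-cycling and cycling gates had 0.37 and 0.17, the neutrophil gate 0.18 and the erythroid gate 0.03. Member transcripts are short, with a median of 857.5 bases against 2586 over all genes with a known transcript. Members in those CD8 gates had −0.14 and −0.11 for length, and −0.38 and −0.40 for the share of G and C bases. The part of length and base content in the day values was not tested. The neutrophil value was −0.72 under stricter gates and −0.76 without barcodes rich in primary granule genes, an alternative added after seeing the data. Among neutrophil barcodes with at least 4000 UMIs it was −0.22. The median neutrophil barcode held 11991 UMIs at day +7 and 5979 at day +14. The CD4 non-cycling value moved with depth: the median barcode held 6635 UMIs at day +7 and 4465 at day +14, and among barcodes with at least 4000 UMIs the difference was −0.04. In CD8 non-cycling barcodes under 4000 UMIs the members took 20.9% and 22.3% of UMIs, against 28.4% and 29.3% at 4000 to 8000 UMIs. The erythroid gate also differed in depth, with a median of 31656 UMIs at day +7 and 2447 at day +14, and its marker genes summed to 7301 and 38256 CPM.

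Cycling cells gave a lower share of their UMIs to ribosomal protein genes than non-cycling cells, in both libraries. The log2 ratio of shares, cycling over non-cycling, was −0.16 in each library for the CD8 gate. For the CD4 gate it was −0.16 in the day +7 library and −0.05 in the day +14 library. Cycling barcodes were deeper, with a CD8 median of 13210 against 6533 UMIs at day +7 and 12535 against 5489 at day +14. Counted as molecules, the median CD8 cycling barcode held 3247 member UMIs at day +7 against 1846 in a non-cycling one, so that the lower share went with a larger number of ribosomal protein UMIs. UMIs of all other genes differed by more, with medians of 9906 and 4700. The order held in a narrower range of depth: among CD8 barcodes of 8000 to 16000 UMIs the members' share fell with each step in cell cycle gene share, from 29.2% through 27.0%, 25.9% and 24.9% to 22.3% at day +7 and from 30.1% through 28.2%, 26.6% and 25.5% to 23.2% at day +14. The 5 bins were chosen after the values were seen and held 146 to 781 barcodes each at that depth, with a median depth that still differed between bins, from 9375 to 12228.5 UMIs at day +7. Above 16000 UMIs the order was seen at day +7, with 27.3% in 11 non-cycling and 26.2% in 1152 cycling barcodes, and not at day +14, with 26.47% in 10 and 26.48% in 1113.

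**Figure D2:**
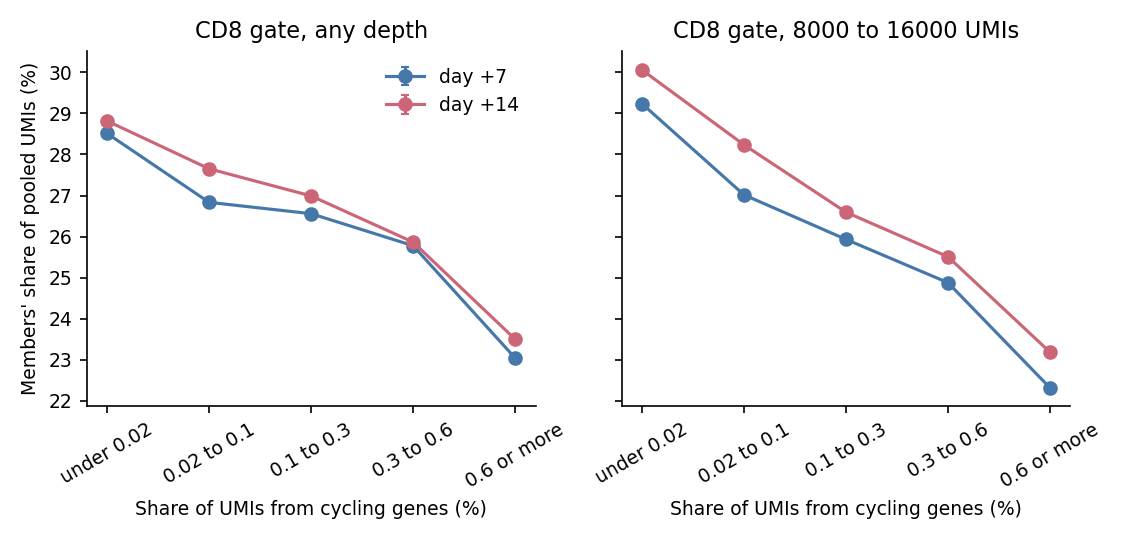
Members' share of pooled UMIs (y axis, percent) in CD8 barcodes split by the share of UMIs from 16 cell cycle genes (x axis, percent) at day +7 (blue) and day +14 (red), at any depth (left) and at 8000 to 16000 UMIs (right); bars, mostly hidden by the points, are 95% counting intervals. The share falls at each step, from 29.2% to 22.3% at day +7 and from 30.1% to 23.2% at day +14 on the right.

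The members did not move together between cycling and non-cycling cells. For each gene a further measure was used, its share of the UMIs of all members, which removes a change common to the whole family. Across the 80 members the log2 ratios of this share in the CD8 gate at day +7 and at day +14, which come from separate libraries, had a Pearson correlation of 0.935 and a Spearman correlation of 0.957; genes are not independent replicates and both libraries share the gate's definition. In the CD4 gate the same values were 0.958 and 0.952 over 79 members. In CPM, 7 of 79 members were at least 1.2-fold higher in cycling CD8 cells in both libraries, against 28.2% of 6408 genes tested, and 24 of 79 were at least 1.2-fold lower, against 20.1%. Taken singly, the day +7 library had 8 higher (33.1%) and 25 lower (25.1%) and the day +14 library 8 of 80 higher (32.7%) and 24 lower (29.4%). The median member was at −0.15 and −0.14 on the log2 scale, and the median of all genes tested at 0.05 and 0.02.

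The members with the largest gain in cycling CD8 cells included the paralog Rps27l. Rps27l, a paralog of Rps27 known as a p53 target, stood at 374 CPM in non-cycling and 622 CPM in cycling CD8 cells at day +7, and at 350 and 665 CPM at day +14. Its share of member UMIs was higher by 0.89 (0.84 to 0.95) and 1.09 (1.02 to 1.15) on the log2 scale. Rps27l was thus higher in cycling cells in each library, and it was among the 4 members called higher in cycling CD4 cells in both libraries, as were Rps2 and Rpl7l1, against 26.5% of 3926 genes tested. Rps2, a small-subunit protein near the entry of the mRNA channel that was named after its values were seen, had log2 share ratios of 0.47 and 0.52 in the CD8 gate and 0.55 and 0.80 in the CD4 gate. The large-subunit gene Rpl31 had 0.55 and 0.55 in the CD8 gate; it overlaps Tbc1d8 on the opposite strand, and whether strand was counted is not given in the sources used here. Rps19bp1 and Rpl7l1, the members that are no subunits, had 0.48 and 0.86, and 0.50 and 0.56.

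The members with the largest loss were led by Rps27, the partner of the paralog that gained most. Rps27 stood at 3862 CPM in non-cycling and 2407 CPM in cycling CD8 cells at day +7, and at 4115 and 2450 CPM at day +14. Its log2 share ratio was −0.52 (−0.54 to −0.50) and −0.59 (−0.61 to −0.57). Its retrogene Rps27rt, at 166 and 105 CPM at day +7 and 214 and 129 CPM at day +14, had −0.49 and −0.57. In the CD4 gate Rps27 had −0.54 and −0.81. Rps24 had −0.29 and −0.34 and Rpl34 −0.25 and −0.28 in the CD8 gate. In the CD4 gate 14 of 79 members were at least 1.2-fold lower in cycling cells in both libraries, against 19.1% of genes tested. Counted by library, 4 members were higher at day +7 (33.5%) and 19 at day +14 (36.4%), and 27 were lower at day +7 (25.4%) and 14 at day +14 (32.7%). Small-subunit genes as a group took a larger part of member UMIs in cycling than in non-cycling CD8 cells, 45.3% against 44.1% at day +7 and 46.0% against 45.0% at day +14.

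**Figure D3:**
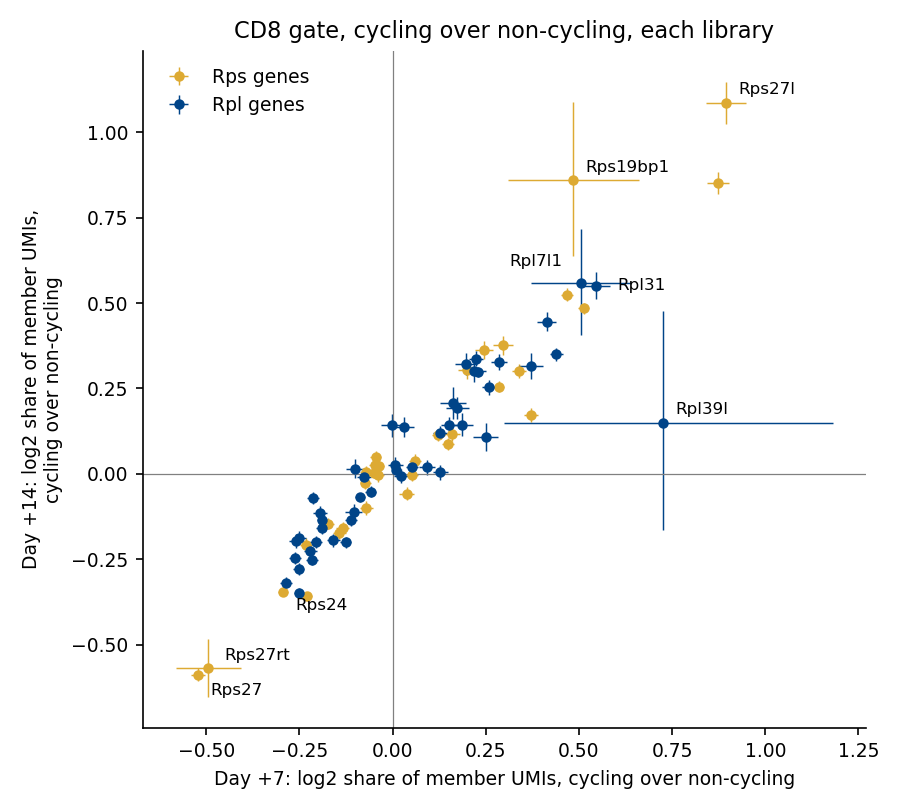
Log2 ratio of each member's share of member UMIs, cycling over non-cycling CD8 barcodes, at day +7 (x axis) and day +14 (y axis); each point is a gene (Rps yellow, Rpl blue) and lines are 95% counting intervals. Most points lie along a rising line, with Rps27l (0.89 and 1.09) at the upper right and Rps27 (−0.52 and −0.59) at the lower left.

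Between days, most members differed little within the CD8 gates, most were lower at day +14 in the neutrophil gate, and a few differed in every T cell gate. In the CD8 non-cycling gate 6 of 80 members were at least 1.2-fold higher in CPM at day +14, against 42.3% of 6707 genes tested, and 3 were at least 1.2-fold lower, against 11.4%. The median member was at 0.02 on the log2 scale and the median gene tested at 0.19, with the quartiles of the members at −0.10 and 0.09. In the CD8 cycling gate 4 of 80 were higher (37.5% of 6793 genes) and 2 lower (8.11%). In the CD4 cycling gate 2 of 79 were higher (31.2% of 5167 genes) and 2 lower (11.8%), and in the CD4 non-cycling gate 3 of 79 were higher (34.0% of 2921 genes) and 19 lower (22.0%). In the neutrophil gate none of 76 was higher (27.3% of 1089 genes) and 54 were lower (25.1%), and in the erythroid gate 2 of 79 were higher (26.8% of 2790 genes) and 15 lower (34.7%). Over all kept barcodes 3 of 79 were higher (38.8% of 6919 genes) and 2 lower (7.75%). Under the scaling by the median ratio of other genes with at least 100 UMIs on both days, 1 member was higher in the CD8 non-cycling gate, against 27.4% of genes tested, and 23 were lower, against 23.2%. The gates come from the same pair of libraries, so a difference seen in several of them is not a repeat of it in new libraries.

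Higher at day +14 in the CD8 non-cycling gate were Rps15a, Rpl39, Rps27rt, Rps26, Rps28 and Rpl39l, of which Rps28 was named after its values were seen. Rpl39l was lower in the CD4 gates, from few UMIs. Rps15a, a small-subunit gene, stood at 6385 CPM in CD8 non-cycling cells of day +7 and at 8544 CPM in those of day +14, a log2 difference of 0.42 (0.40 to 0.44), and at 4872 and 5963 CPM in CD8 cycling cells. Its share of member UMIs was higher by 0.41 and 0.28 in the CD8 non-cycling and cycling gates, 0.42 and 0.16 in the CD4 gates, 0.24 in the neutrophil gate and 0.15 in the erythroid gate. Rpl39, which lines the exit tunnel of the large subunit, stood at 5158 and 6550 CPM in CD8 non-cycling cells and at 3974 and 4923 CPM in CD8 cycling cells. The share of Rpl39 was higher by 0.33, 0.29, 0.39, 0.30, 0.20 and 0.28 in the CD8 non-cycling, CD8 cycling, CD4 non-cycling, CD4 cycling, neutrophil and erythroid gates. Both genes were thus higher as a share of member UMIs in all 6 gates, with intervals above 0 in each, although in CPM both were lower in the neutrophil gate, at −0.09 (−0.22 to 0.05) and −0.13 (−0.27 to 0.00), and Rps15a was at 0.00 in the erythroid gate. Rps27rt had log2 share ratios of 0.36 and 0.28 in the CD8 gates and 0.74 and 0.48 in the CD4 gates, while its source gene Rps27 had 0.08 and 0.01, and 0.27 and −0.01. The small-subunit genes Rps26 and Rps28, whose proteins sit by the mRNA exit channel, had 0.28 and 0.26 in the CD8 non-cycling gate and 0.08 and 0.17 in the CD8 cycling gate; Rps26 was at 0.00 in the CD4 non-cycling gate.

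Lower at day +14 was above all Rpl35, a large-subunit protein next to the exit of the peptide tunnel. It stood at 926 and 652 CPM in CD8 non-cycling cells, 927 and 673 CPM in CD8 cycling cells, 935 and 557 CPM in CD4 non-cycling cells and 955 and 673 CPM in CD4 cycling cells. In the neutrophil gate it stood at 408 and 275 CPM and in the erythroid gate at 1387 and 963 CPM. The log2 difference in CPM was −0.51 (−0.56 to −0.45), −0.46, −0.75, −0.50, −0.57 (−0.89 to −0.26) and −0.53 (−0.79 to −0.27) in that order, so Rpl35 was lower at day +14 in all 6 gates. As a share of member UMIs it was lower by more than counting error in all of them but the neutrophil gate, at −0.24 (−0.56 to 0.07). Rpl35 overlaps Wdr38 and Arpc5l on the opposite strand. Rpl13a, a large-subunit gene, had log2 share ratios of −0.28, −0.25, −0.36 and −0.30 in the CD8 non-cycling, CD8 cycling, CD4 non-cycling and CD4 cycling gates, and −0.05 and −0.04, with intervals that include 0, in the neutrophil and erythroid gates. Rpl36al had −0.26 and Rpl29 −0.26 in the CD8 non-cycling gate, and −0.12 and −0.14 in the CD8 cycling gate. Rpl13a and Rpl36al overlap the coding genes Gm45713 and Gm49383 on the same strand, and the effect on their counts was not tested. Rpl10, which joins the large subunit late in its assembly, had −0.24 and −0.38 in the CD8 gates and −0.60 and −0.26 in the neutrophil and erythroid gates. Rps19bp1 had −0.46 (−0.74 to −0.19) in the CD8 non-cycling gate from few UMIs, 37.2 and 27.3 CPM.

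**Figure D4:**
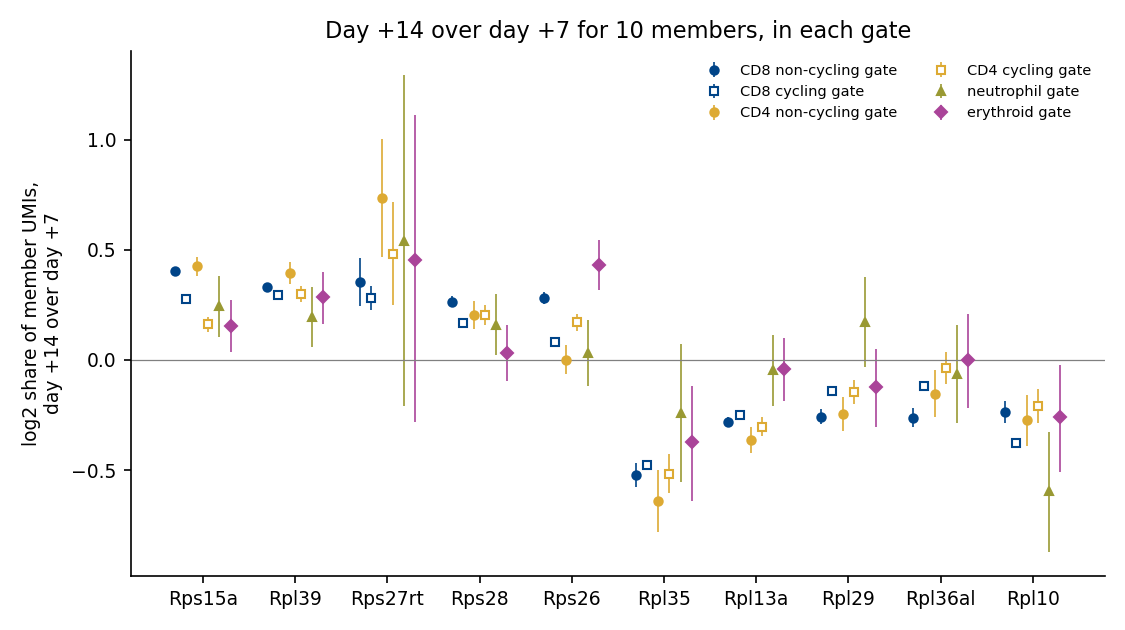
Log2 ratio of the share of member UMIs, day +14 over day +7, for 10 members (x axis) in 6 gates (symbols), with 95% counting intervals as lines; Rps28 was added after its values were seen. Rps15a, Rpl39 and Rps27rt lie above 0 in each gate (intervals of Rps27rt include 0 in the neutrophil and erythroid gates) and Rpl35 lies below 0 in each.

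Small-subunit genes also took slightly more of the member UMIs at day +14 in the T cell gates, 44.1% against 45.0% in CD8 non-cycling cells (log2 0.03, 0.02 to 0.03) and 45.3% against 46.0% in CD8 cycling cells. In the CD4 gates the differences were 0.02 and 0.01 on the log2 scale. The neutrophil and erythroid gates gave −0.01 and 0.01, with intervals that include 0.

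In the neutrophil gate the ribosomal protein genes were low as a family. Against the CD8 gates of the same library, 78 of 79 members were at least 1.2-fold lower in both libraries, against 54.6% of 6238 genes tested, and none was higher, against 16.5%. By library, 79 were lower at day +7 (61.2%) and 78 at day +14 (62.5%), and none was higher (22.9% and 23.4%). The median member was at −1.11 at day +7 and −1.40 at day +14, and the median gene tested at −0.55 and −0.63. The one member not called in both was Rpl7l1, with 63.3 and 71.4 CPM in the neutrophil gate from 36 and 35 UMIs, against 78.3 and 73.9 CPM in the CD8 gates. Within the family Rps9 and Rps27a (which encodes ubiquitin fused to a small-subunit protein) were relatively high, with log2 share ratios of 0.65 and 0.73, and 0.68 and 0.63. Rps15a, Rps18 and Rpl22l1 were relatively low, with −0.52 and −0.57, −0.39 and −0.33, and −0.38 and −0.30.

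The neutrophil gate was not uniform, and its split was looked at after the values were seen. Barcodes with at least 0.1% of UMIs from the primary granule genes Elane, Mpo, Prtn3 and Ctsg, which mark early neutrophil precursors, gave the members 22.6% of UMIs at day +7 (4 barcodes) and 21.7% at day +14 (9 barcodes). The other barcodes gave 7.52% (33 barcodes) and 4.43% (52 barcodes). The first set was deeper, with medians of 43014.5 and 17174 UMIs against 11231 and 5713. Its few barcodes therefore weigh heavily in the pooled shares and gene ratios of the neutrophil gate. The median barcode of the whole gate gave the members 5.49% and 3.15%. The range over single barcodes was 14.5% to 28.2% and 6.13% to 28.4% in the first set, and 1.95% to 21.4% and 1.05% to 16.1% in the second, so the sets overlapped. The 12 neutrophil genes took 11.4% and 8.67% of UMIs in the first set and 39.3% and 45.6% in the second, and without those UMIs in the total the members' shares were 25.5% and 23.8%, and 12.4% and 8.14%. Members thus remained lower in the second set when the neutrophil genes were left out of the total.

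In the erythroid gate many members were high. Against the CD8 gates 34 of 79 members were at least 1.2-fold higher in both libraries, against 29.3% of 6324 genes tested, and none was lower, against 26.9%. By library, 60 were higher at day +7 (44.5%) and 34 at day +14 (41.1%), and 0 and 2 were lower (33.5% and 41.0%). The median member was at 0.40 at day +7 and 0.23 at day +14, and the median gene tested at 0.14 and 0.02. Rpl31 stood at 2123 and 2106 CPM against 1072 and 1120 CPM in the CD8 gates, with log2 share ratios of 0.62 and 0.71. Rps27l, with 1159 and 1233 CPM against 588 and 628 CPM, had 0.61 and 0.77, and Rpl14 had 0.56 and 0.80. Rps19bp1 had 0.63 in both libraries, with an interval at day +14 that includes 0 (10 UMIs). Rps13 and Rps15a were among the lowest relative to the family, with −0.46 and −0.49, and −0.45 and −0.59. Across 79 members the day +7 and day +14 values had a Pearson correlation of 0.882 in the erythroid and 0.765 in the neutrophil comparison. They came from 22 to 78 barcodes a gate and day, of which deep ones weigh most.

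CD4 and CD8 cells differed little. Among cycling cells no member was at least 1.2-fold higher or lower in CD4 than in CD8 cells in both libraries, against 6.06% and 5.16% of 6436 genes tested. Among non-cycling cells 1 of 79 was higher, Rps19bp1, against 12.1% of 5869 genes, and none was lower, against 6.05%. By library, non-cycling cells had 1 and 2 members higher (28.2% and 28.6%) and 0 and 4 lower (16.7% and 16.5%), and cycling cells 0 and 1 higher (15.9% and 14.6%) and none lower (11.5% and 15.6%). Rpl29 was higher in each comparison, with log2 share ratios of 0.19 and 0.20 in non-cycling and 0.11 and 0.11 in cycling cells, day +7 first. Rpl10 had 0.18 and 0.15 in non-cycling and 0.04 and 0.21 in cycling cells. Rpl7a was lower, with −0.17 and −0.15, and −0.05 and −0.08, and Rpl32 had −0.11 and −0.14, and −0.03 and −0.12. Rpl39l was the other member with a low ratio, from the few barcodes described below. The members as a whole changed sign among non-cycling cells: their share of UMIs was 28.9% in CD4 against 28.5% in CD8 cells at day +7 and 26.9% against 28.8% at day +14, with the depth difference given above.

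Several members come as paralogs that can replace each other in the ribosome, except Rpl7l1, whose product acts in ribosome assembly. Rpl22l1, the paralog of Rpl22, gave 31.0% of the pair's UMIs in CD8 non-cycling cells at day +7 and 29.1% at day +14, and 38.5% and 35.6% in CD8 cycling cells. In the CD4 gate it gave 28.7% and 27.5% in non-cycling and 35.7% and 32.7% in cycling cells. The part of Rpl22l1 was thus larger in cycling cells in each lineage and library. Rps27l gave 8.84% and 7.84% of the UMIs of Rps27 and Rps27l together in CD8 non-cycling cells and 20.5% and 21.3% in CD8 cycling cells. It reached 30.7% and 34.3% in the erythroid gate and 23.1% and 17.8% in the neutrophil gate. Rpl36al and Rpl36a were near balance, with Rpl36al at 52.7% and 47.6% in CD8 non-cycling cells, 49.5% and 47.6% in CD8 cycling cells, and 40.8% and 40.9% in the erythroid gate. Rpl7l1 gave 2.55% and 2.28% of the UMIs of Rpl7 and Rpl7l1 in CD8 non-cycling cells and 3.24% and 3.02% in CD8 cycling cells. Rpl3l, a muscle gene, and Rpl10l, a testis gene, had 9 and 1 UMIs in all.

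Rpl39l, a paralog of Rpl39 known from testis and germ cells, was present in few barcodes but with several UMIs in each. It had 622 UMIs in 186 kept barcodes at day +7 and 1037 in 328 at day +14, or 3.23 UMIs per barcode with any. Of 1039 other genes with a total within 20% of its own, the median had 1.12 UMIs per positive barcode, the 95th percentile was 1.28 and 6 were at or above Rpl39l. Single CD8 barcodes held up to 17 UMIs at day +7 and 23 at day +14. In the CD8 gate 154 of 5729 barcodes (2.69%, exact binomial interval 2.28 to 3.14) had a UMI at day +7 and 283 of 5784 (4.89%, 4.35 to 5.48) at day +14. In the CD4 gate 8 of 477 (1.68%, 0.727 to 3.28) and 2 of 704 (0.284%, 0.0344 to 1.02) had one. The CD4 share was below the CD8 share by more than counting error at day +14, whereas the intervals overlapped at day +7. These intervals treat barcodes as independent, and whether barcodes with Rpl39l came from related cells was not tested. The median barcode held 9501 and 8847 UMIs in the CD8 gate and 8295 and 5325 in the CD4 gate. None of the 37 and 61 neutrophil barcodes and none of the 78 and 22 erythroid barcodes had a UMI, which allows shares of barcodes with a UMI of up to 8.11% and 4.92%, and 3.85% and 13.6% (3 counts of the total), and says nothing of cells that hold the mRNA without a captured UMI. Its level was 6.06 CPM at day +7 (49 UMIs) and 14.4 CPM at day +14 (93 UMIs) in CD8 non-cycling cells, and 8.97 CPM (444 UMIs) and 14.3 CPM (703 UMIs) in CD8 cycling cells. It was 5.61 CPM (7 UMIs) and 0 CPM in CD4 non-cycling cells, and 2.22 CPM (6 UMIs) and 0.384 CPM (1 UMI) in CD4 cycling cells. An interval for these levels would treat each UMI as separate, which the several UMIs per barcode do not bear out. The day difference in the level of Rpl39l is therefore given as values only.

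**Figure D5:**
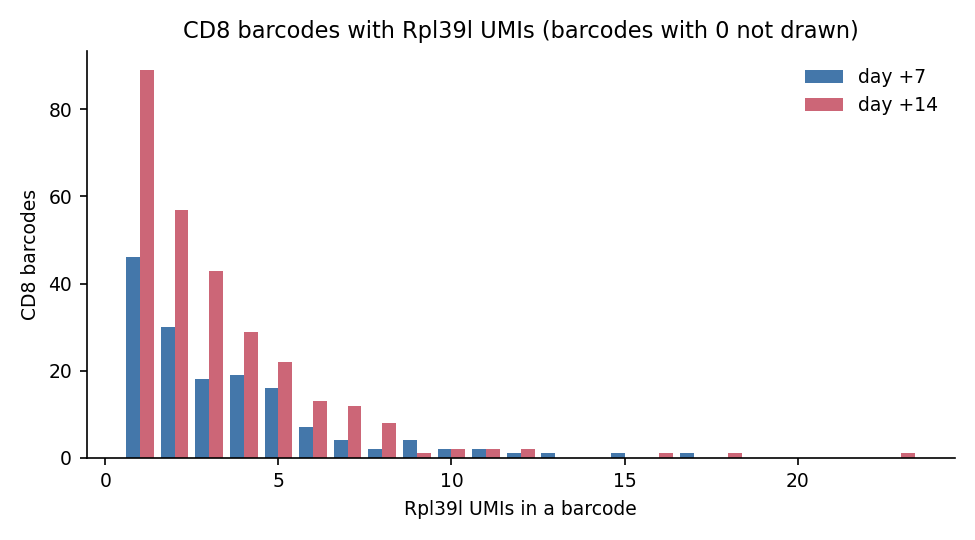
Number of CD8 barcodes (y axis) by their count of Rpl39l UMIs (x axis) at day +7 (blue) and day +14 (red); barcodes with 0 UMIs are not drawn. The counts run on to 17 UMIs at day +7 and 23 at day +14, while genes of a like total had a median of 1.12 UMIs per positive barcode.

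The CD8 barcodes with at least 3 Rpl39l UMIs, 78 at day +7 and 137 at day +14, had a ribosomal protein share close to that of those with none. The members took 26.4% against 26.0% of UMIs at day +7 and 26.6% against 26.3% at day +14, and Rpl39 itself stood at 3941 against 4226 CPM and at 5060 against 5247 CPM. Those barcodes were deeper, with medians of 14902 against 9406 and 14478 against 8711 UMIs. Rpl39l UMIs thus occurred in cells that also held Rpl39. A UMI of the T cell receptor gene Trbv17 was seen in 3.85% of the barcodes with at least 3 Rpl39l UMIs at day +7. Those with none had 1.26%, and the day +14 values were 14.6% and 6.49%. For Trav3-4 the values were 0% and 0.0897% at day +7, and 10.9% and 4.04% at day +14. The part of depth or of related cells in these values was not tested.

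Other genes of translation were read from lists of 7 ribosomal proteins outside the symbol rule and of 16 initiation, elongation and related genes, most with TOP starts. In CD8 non-cycling cells 0 of the 7 were at least 1.2-fold higher at day +14 and 1 was lower, with a median of −0.10. Of the 16, 5 were higher and 1 lower, against 42.3% and 11.4% of all genes tested, with a median of 0.10; the elongation factor gene Eef1a1 stood at 3645 and 4836 CPM. Between cycling and non-cycling CD8 cells the 7 had medians of −0.19 and −0.14, with 3 lower at day +7 and 2 at day +14, against 25.1% and 29.4% of all genes tested. Fau, which encodes a small-subunit protein fused to a ubiquitin-like one, was lower in cycling cells, at 7551 and 5184 CPM at day +7 and 7609 and 5239 CPM at day +14. Among the 16, the ribosome assembly factor gene Npm1 was higher in cycling cells (890 and 1178 CPM, and 978 and 1477 CPM), whereas Tpt1 was lower (7554 and 5293 CPM, and 6699 and 4916 CPM). All 7 and all 16 were at least 1.2-fold lower in the neutrophil gate than in the CD8 gates in both libraries, against 54.6% of all genes tested.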

How the data were processed

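Droplet single-cell RNA libraries of sorted splenic donor T cells were analysed, 1 at day +7 and 1 at day +14. The deposited matrices hold whole-number UMI counts per gene and barcode, which the authors made with Cell Ranger 6.1.2 and the mm10 build, per the labels; the barcode and gene lists were used as other columns. Strand setting and annotation release are not given in the sources used here.

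From these counts, barcodes were filtered and gated as the report states (CD8: at least 2 Cd8a and Cd8b1 UMIs and no Cd4 UMI; CD4: at least 1 Cd4 UMI and none of Cd8a and Cd8b1; T cells: at least 5 UMIs and 0.2% of UMIs from T cell genes). UMIs were summed per gate and day and divided by the gate's total. A gene was compared where it averaged 10 CPM or more and had 100 UMIs or more, and a 1.2-fold difference was called. Ratios carry exact conditional binomial intervals, levels exact Poisson and shares Clopper-Pearson intervals at 95%; they cover counting error only, and with 1 library per day no test was made. A count of 0 was read as up to 3 counts. The interval code was tested on simulated data.

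Named genes were the 5 members with the most UMIs, the 5 highest and 5 lowest share ratios for day in the CD8 non-cycling gate and for cycling in the CD8 gate, 3 each way for the neutrophil, erythroid and CD4 comparisons (those over both libraries by the smaller ratio), the paralogs, and the members at the limit. Rps2 and Rps28 are said to be named after their values were seen. Rpl14, Eef1a1, Fau, Npm1 and Tpt1 were also named outside this rule. Some genes that this rule names are not reported here. Members and lists were chosen with earlier results of these data known. Gene positions came from GENCODE M21 and starts from RefSeq, both on GRCm38. Scrublet marked 0 barcodes as doublets in either library and did not separate doublets here, so none were removed; leaving out the highest scores was an alternative. Python 3.11.15, numpy 2.4.6 and scipy 1.17.1 were used.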

Additional observations from a re-analysis of the deposited data

Results flagged for a closer look

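The members' share of UMIs differed in direction by gate, on the log2 scale from day +7 to day +14: it was 0.0152 in the CD8 non-cycling, 0.0149 in the CD8 cycling and 0.0127 in the CD4 cycling gate, and −0.106 in the CD4 non-cycling, −0.33 in the neutrophil and −0.153 in the erythroid gate. Each gate's value rests on 1 library per day, the difference between gates was not tested, and the positive values turned negative under other scalings, given next.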

How the results depend on the processing

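No paired analysis was possible because each day had 1 library. All values here are log2 ratios of the members' share of UMIs unless named otherwise, and the cause of each move was not tested. Cycling over non-cycling CD8 cells stayed negative under all 9 alternatives in both libraries. The day differences of the CD4 non-cycling, neutrophil and erythroid gates also stayed negative, whereas those of the CD8 non-cycling, CD8 cycling and CD4 cycling gates changed sign. Few barcodes limit the neutrophil and erythroid gates.

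For day +14 over day +7, scaling by the median ratio of other genes with at least 100 UMIs on both days gave −0.2241 over all kept barcodes, −0.1561 in CD8 non-cycling, −0.1824 in CD8 cycling, −0.05863 in CD4 cycling, −0.3811 in neutrophil and −0.2425 in erythroid barcodes. Scaling by the other genes compared, a set chosen after seeing the data, gave −0.1981 over all, −0.1798 in CD8 non-cycling, −0.1614 in CD8 cycling, −0.192 in CD4 non-cycling, −0.09464 in CD4 cycling, −0.3811 in neutrophil and −0.1109 in erythroid barcodes. Leaving mitochondrial and ribosomal RNA-associated genes out of the total gave −0.03043, −0.01112, −0.0001821, −0.004003 and −0.38 over all and in CD8 non-cycling, CD8 cycling, CD4 cycling and neutrophil barcodes, and −0.1287 in CD4 non-cycling barcodes. The mean over barcodes gave −0.03004 over all, −0.02133 in CD8 non-cycling, 0.005065 in CD8 cycling, −0.1598 in CD4 non-cycling, −0.01477 in CD4 cycling, −0.4552 in neutrophil and −0.1305 in erythroid barcodes. Stricter gates gave −0.005912 in CD8 non-cycling, 0.02468 in CD8 cycling, −0.07541 in CD4 non-cycling, 0.02154 in CD4 cycling, −0.7235 in neutrophil and −0.2312 in erythroid barcodes. Barcodes with at least 4000 UMIs gave −0.005792 over all, 0.0408 in CD8 non-cycling, 0.01629 in CD8 cycling, −0.03541 in CD4 non-cycling and −0.2194 in neutrophil barcodes. A mitochondrial limit of 5% gave −0.01076 over all, 0.02127 in CD8 non-cycling, 0.01657 in CD8 cycling and −0.1778 in erythroid barcodes. Members without the assembly factors and paralogs gave −0.01114 over all. The neutrophil value was −0.3056 without the barcodes of highest doublet score, and −0.7645 without the barcodes rich in primary granule genes, an alternative chosen after seeing the data.

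For cycling over non-cycling CD8 cells, day +7 then day +14, the median ratio gave −0.163 and −0.1367, stricter gates −0.2117 and −0.1811, the mean over barcodes −0.1801 and −0.1537, at least 4000 UMIs −0.1649 and −0.1894, the total without those genes −0.1843 and −0.1734, and the shorter member list −0.1639 and −0.1648. At day +14 the mitochondrial limit gave −0.1657 and the doublet scores −0.1584. In CD8 non-cycling cells 1 member was at least 1.2-fold higher and 23 lower at day +14 under the median ratio, and 5 were lower with the smaller total.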
